A study of Capra hircus with 4 samples.

Results

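DSG2 and AMOTL1 are genes of epithelial cell junctions, and in goat endometrium both were listed by the submitters as predicted cis targets of long non-coding RNAs (lncRNAs) that differed in their comparison of receptive with pre-receptive tissue. The 2 genes were found by symbol among the 387 predicted target genes, and every lncRNA transcript whose deposited locus lay within 100 kb of either gene locus was taken with them. This gave 62 of the 226416 transcripts in the table of all lncRNAs, 23 around DSG2 and 39 around AMOTL1. The genes were chosen by the listed differences of their lncRNAs and of their own transcripts in that comparison, so its values are a description of them and not a test.

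Endometrium, which lines the uterus, was taken from dairy goats of the Xinong Saanen breed in the receptive phase (gestational day 15, 2 libraries) and in the pre-receptive phase (gestational day 5, 2 libraries). All goats were 24 months old, had borne young before, and had been brought into estrus together and mated naturally. The labels give 10 goats for each stage and do not say how many went into a library. The submitters' comparison sets libraries called T against libraries called C, and neither labels nor headers tie these letters to the stages, so every direction below is that of set T relative to set C and belongs to no named stage. The columns of values per library and per set could not be matched to the labels and were not used, so no level, no replicate spread and no depth is given for any transcript.

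DSG2 encodes desmoglein 2, a calcium-dependent cadherin of desmosomes, the spot-like junctions that tie the keratin filaments of neighbouring epithelial cells together. It is the desmoglein of simple epithelia and of heart muscle, while DSG1 and DSG3 are best known from stratified epithelia such as skin. AMOTL1 encodes angiomotin-like 1, a scaffold protein at tight junctions that binds the Hippo pathway effector YAP and holds it out of the nucleus. In the uterus, the junctions of the luminal epithelium form the barrier that an attaching embryo meets. A lncRNA listed as a cis target partner is only a neighbour on the chromosome, and no effect on the gene was measured.

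The DSG2 locus (gene 102187443) lay on chromosome 24 at 25714994 to 25757951, in deposited positions for which the sources used here name no genome build. Of its 23 flanking lncRNA transcripts, 11 lay on the side of lower coordinates, towards TTR, and 12 on the side of higher coordinates, towards DSG3. TTR encodes the thyroid hormone carrier transthyretin, and DSG3 the desmosomal cadherin desmoglein 3. None overlapped the DSG2 locus. The nearest on the lower side was TCONS_00264760, with a gap of 4867 bp between the nearest ends, and all the other 10 on that side lay beyond 10 kb. On the higher side the nearest was TCONS_00271125, with a gap of 2441 bp, followed by TCONS_00271126 at 3784 bp and by TCONS_00264762 and TCONS_00271127, both at 10178 bp. The stretch between DSG2 and DSG3 thus began with these 4 transcripts, and it holds both of the called lncRNAs described below. In the RefSeq order of ARS1.2, a protein-coding gene, LOC108633772, stands between DSG2 and LOC102183378 in that stretch, and its position in the deposited coordinates is not known here.

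**Figure D1:**
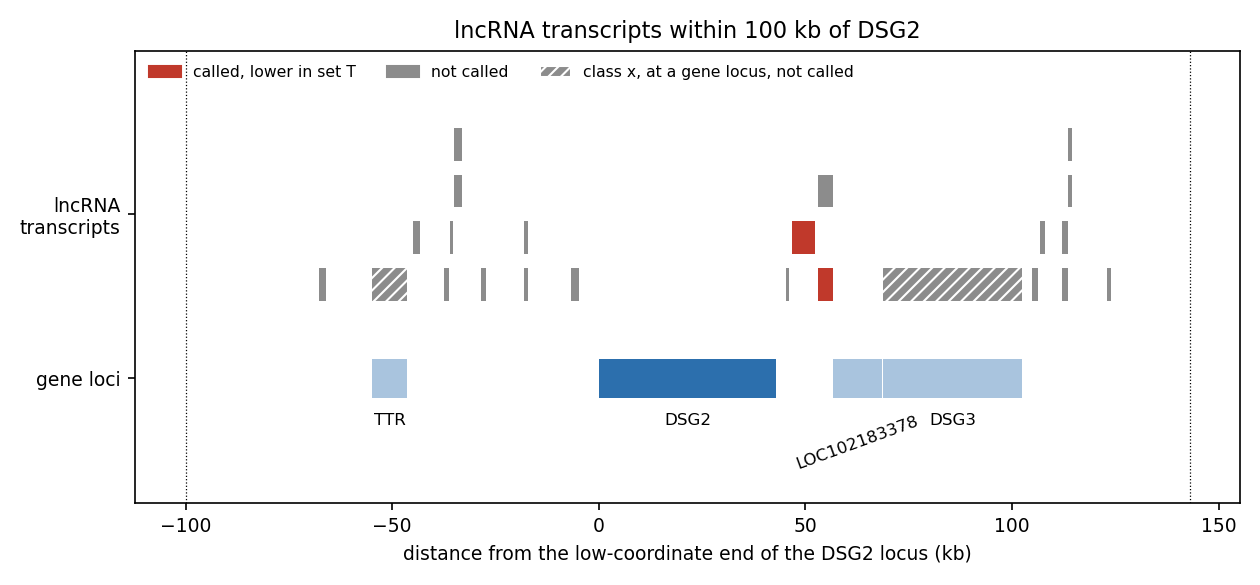
Map of the 100 kb on each side of DSG2, with distance in kb from the low-coordinate end of the DSG2 locus on the horizontal axis; bars below are gene loci (TTR is drawn at the locus deposited for its class x lncRNA), bars above are the 23 lncRNA transcripts, and dotted lines mark the 100 kb limits. The 2 called transcripts, in red, sit side by side between DSG2 and LOC102183378; LOC108633772, which stands there in ARS1.2, is not drawn.

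Intergenic transcripts, class u in the code of Cufflinks, made up 21 of the 23, against 98.3% of the whole table. The other 2 were of class x, the code for exonic overlap with a gene on the opposite strand, and were assigned to TTR (TCONS_00264754) and DSG3 (TCONS_00264766). The locus deposited for TCONS_00264766, 25783710 to 25817421, is the same as the locus deposited for the DSG3 gene itself. Over all lncRNAs, 13 of 191319 distinct loci overlapped another one, so a locus may be a merged region and not the extent of a single transcript, and a gap is a gap between loci. The median locus length was 1325 bp around DSG2, with 724 bp as the shortest and 33712 bp, at DSG3, as the longest. The CPC scores of coding potential around DSG2 ran from -1.28 to -1.01, with a median of -1.11 against -1.13 over all lncRNAs. Negative scores mean a low coding potential, and the highest CPC score in the whole table was -1.

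AMOTL1 (gene 102186136) lay on chromosome 15 at 13881964 to 14046322. Its 39 flanking transcripts were all intergenic, with 22 on the lower side and 17 on the higher side, and none overlapped the gene locus. On the lower side TCONS_00126443 came up to 131 bp from the AMOTL1 locus. It was followed by TCONS_00118394 at 3976 bp and by TCONS_00118393 and TCONS_00126442, both at 4996 bp. On the higher side the nearest was TCONS_00126448 at 6362 bp. The transcripts stood closer to the gene on the lower side, with 5 within 10 kb against 2 on the higher side and a median gap of 36.8 kb against 56.4 kb. PIWIL4, a gene of the piRNA pathway, lay on the higher side: its class x lncRNA TCONS_00118416 had a gap of 138 kb to AMOTL1. In RefSeq's gene list for the goat assembly ARS1.2, used for names and order only, AMOTL1 stands between LOC102183984, itself annotated as lncRNA, and CWC15, with PIWIL4 beyond LOC102183984. The called transcript TCONS_00126443 lay on the side away from PIWIL4.

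**Figure D2:**
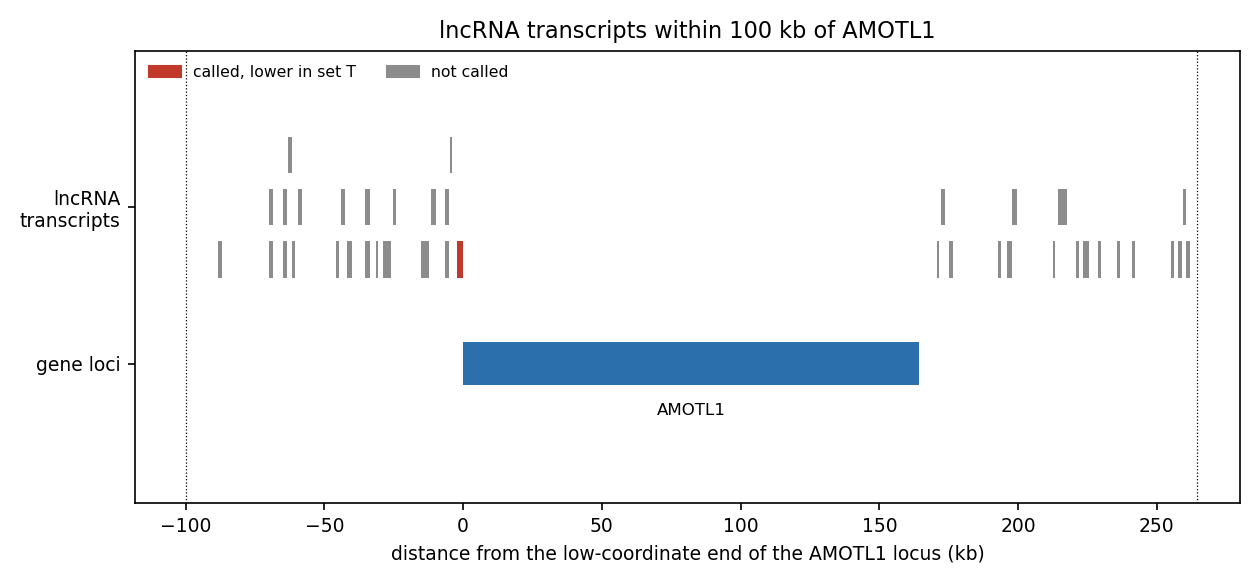
Map of the 100 kb on each side of AMOTL1, with distance in kb from the low-coordinate end of its locus on the horizontal axis; grey and red bars are the 39 lncRNA transcripts and dotted lines mark the 100 kb limits. The 1 called transcript, in red, ends 131 bp from the AMOTL1 locus, on its side of lower coordinates. AMOTL1 is the only gene locus drawn, and LOC102183984 and CWC15, which stand beside it in ARS1.2, are not. No strand was used, so the sides do not tell upstream from downstream.

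The surroundings of AMOTL1 were the denser of the 2 in transcripts. Over all 387 target genes, the number of lncRNA transcripts within 100 kb and outside the gene locus ran from 4 to 53, with a median of 20. DSG2, with 23, had more than 241 of the other genes and fewer than 130. AMOTL1, with 39, had more than 366 and fewer than 19. The lncRNA loci covered 25.1% of the 200 kb around AMOTL1. Around DSG2 they covered 34.4%, including the long locus at DSG3. At the 100 kb limit the last transcripts inside were at 66.0 and 80.0 kb from DSG2 and at 86.9 and 96.3 kb from AMOTL1, and the first outside were at 141 and 131 kb from DSG2 and at 113 and 109 kb from AMOTL1. None of these 8 was called.

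**Figure D3:**
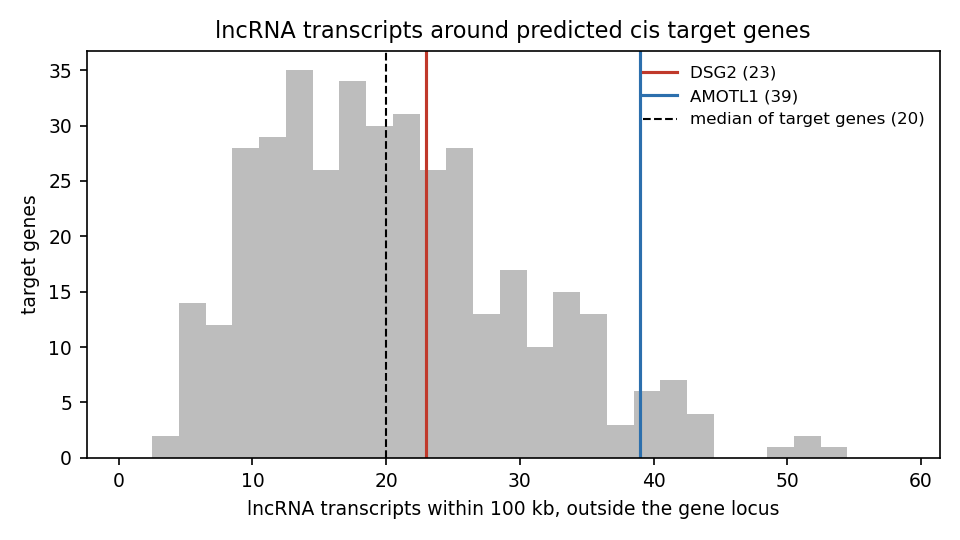
Histogram of the number of lncRNA transcripts within 100 kb of each of the 387 predicted target genes, outside the gene's own locus (horizontal axis, bins of 2), with the number of target genes on the vertical axis. DSG2, at 23, stands near the median of 20, and AMOTL1, at 39, in the upper tail.

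Differential lncRNAs beside DSG2 numbered 2 of 23, both listed lower in set T, and beside AMOTL1 there was 1 of 39, also lower. A call here is a lncRNA that the authors' deposited table lists as differential, which applies to 0.295% of all transcripts, 0.118% as lower in set T. As both genes are in the cis table because a called lncRNA lies near them, nothing is read from these shares.

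TCONS_00264762, on chromosome 24 at 25768129 to 25771565, had a log2 change of -2.74 for set T over set C in the authors' deposited table (p = 0.00465, q = 0.454), which is 6.69-fold lower in set T. TCONS_00271126, on chromosome 24 at 25761735 to 25767312, had a log2 change of -2.11 in the authors' deposited table (p = 0.0056, q = 0.457), or 4.32-fold lower in set T. TCONS_00126443, beside AMOTL1 on chromosome 15 at 13879800 to 13881833, had a log2 change of -1.38 in the authors' deposited table (p = 0.0358, q = 0.823), or 2.59-fold lower in set T. All 3 were thus listed above 0 in both sets, and none had a q under 0.05, which 0.0053% of all transcripts had. Of the 237 lower calls above 0 in both sets, 52 had a more negative log2 change than TCONS_00264762, 95 than TCONS_00271126 and 230 than TCONS_00126443. The lncRNAs of DSG2 therefore ranked above the middle of the authors' lower calls by size of change, and that of AMOTL1 near the weak end.

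**Figure D4:**
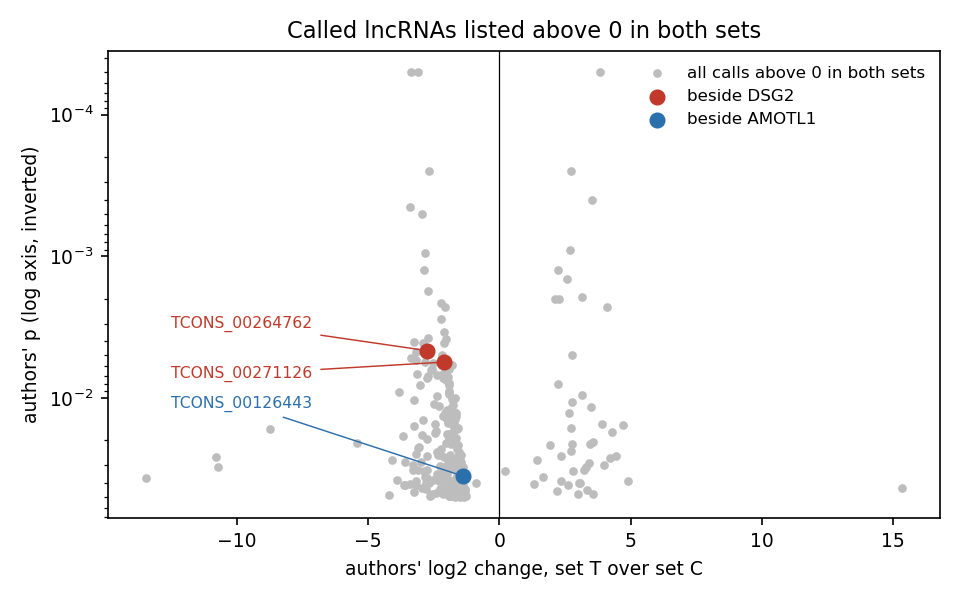
The authors' log2 change of set T over set C (horizontal axis) against their p (vertical axis, log scale, small values on top) for all calls listed above 0 in both sets. The lncRNAs beside DSG2 (red, -2.74 and -2.11) lie within the main group of lower calls, and that beside AMOTL1 (blue, -1.38) at its inner edge with a larger p.

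Of the transcripts around DSG2, 10 shared their locus with another transcript, in 5 pairs. TCONS_00264762 was one of these, and its partner at the same deposited positions, TCONS_00271127, was not called. Such a split was the usual case: of 167 loci shared by several transcripts and holding a call, 163 (97.6%) held a single call. As only 0.295% of all transcripts were called, nothing about TCONS_00271127 is read from that share. Around AMOTL1, 8 transcripts shared a locus, in 4 pairs, and TCONS_00126443 stood alone.

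The transcripts of the junction genes themselves were listed lower in set T. DSG2 had 2 transcripts in the cis table. The authors' deposited table gave a lower direction for both, with p = 0.0022 for TCONS_00271122 and p = 1 for TCONS_00271123. AMOTL1 had 1 transcript, TCONS_00126444, also lower in the authors' deposited table (p = 0.0864). With Benjamini-Hochberg adjustment over all 816 target transcripts with a direction, the adjusted p was 0.15 for TCONS_00271122 and 1 for TCONS_00126444, and neither passed 0.05, as 0.98% of the 816 did. Over the same 816, 4.41% had a p under 0.05 (3.92% of all with a lower direction), and 68.3% were listed lower. Only 267 of the 816 had a p under 1, so these shares and the adjusted p rest largely on transcripts without one. A smaller p than that of TCONS_00271122 was listed for 11 target transcripts, and a smaller p than that of TCONS_00126444 for 50. No fold change of the target transcripts was used, so only their direction is known here.

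**Figure D5:**
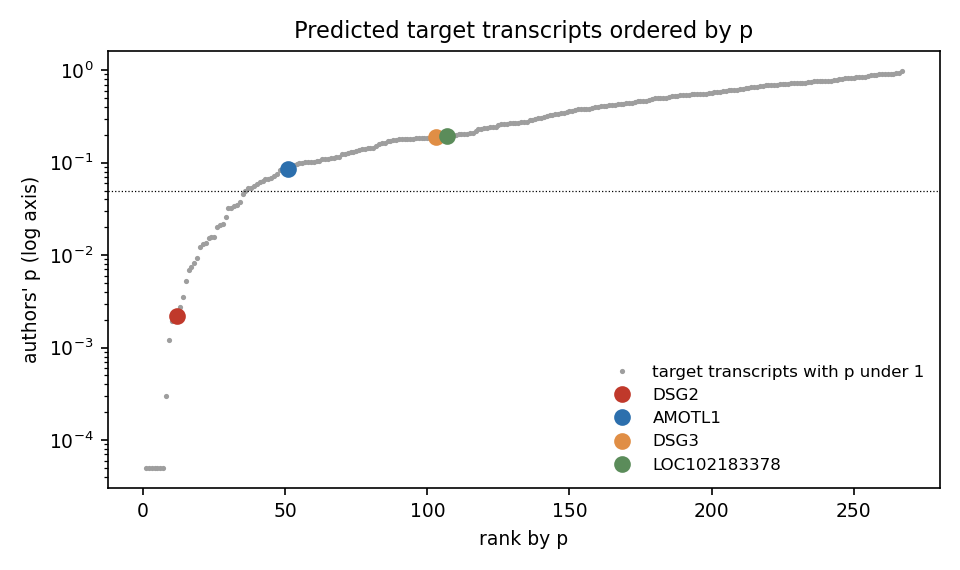
The authors' p of the 267 target transcripts with a p under 1, in rank order (horizontal axis, rank; vertical axis, p on a log scale; dotted line, 0.05). The DSG2 transcript TCONS_00271122 lies in the steep part below the line, AMOTL1 just above the line, and DSG3 and LOC102183378 higher up.

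Both lncRNAs beside DSG2 were also paired with DSG3 and with LOC102183378. LOC102183378, annotated as a lncRNA gene in ARS1.2, lay at 25771664 to 25783583 on chromosome 24. On its side of lower coordinates, TCONS_00264762 ended 99 bp from LOC102183378. The direction of the LOC102183378 transcript TCONS_00271128 was lower in the authors' deposited table (p = 0.194). DSG3 (25783710 to 25817421) had 3 transcripts, all listed lower, with p = 0.189 for TCONS_00271130 and p = 1 for the other two in the authors' deposited table. All 6 target transcripts of the lncRNAs beside DSG2 were thus listed lower, as 68.3% of all target transcripts were. Of the 6, 3 had a p of 1, and 1, of DSG2, had a p under 0.05. AMOTL1 was the only target given for TCONS_00126443. Of the 13 pairs of these 3 lncRNAs with a target transcript, 9 had a gap that falls in their distance class in the cis table. The other 4 were closer than their class: those of DSG2 and TCONS_00271126, 3784 bp apart, were in the 100 kb class, and those of AMOTL1 and TCONS_00126443 (131 bp) and of LOC102183378 and TCONS_00264762 (99 bp) in the 10 kb class. Such pairs were not particular to these loci. Over the whole cis table, gaps ran down to 119 bp in the 100 kb class and to 56 bp in the 10 kb class.

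Beyond 100 kb and up to 1 Mb, outside the window that chose the genes, there were 2 calls among 175 transcripts around DSG2 and 0 among 157 around AMOTL1, against 0.295% of all transcripts. The 2 near DSG2 are neighbours, with a gap of 53 bp between them, and both were lower in set T. Named after their values were seen, they were TCONS_00264794 (25976467 to 25977001) and TCONS_00264795 (25977054 to 26005285), about 219 kb away and without a predicted target. They lay between the loci of the class x lncRNAs of DSG1 (25890501 to 25943949) and DSC3, the gene of desmocollin 3 (26192104 to 26243663). For TCONS_00264795 the authors' deposited table gave a log2 change of -3.36 (p = 0.0052, q = 0.457). The other, TCONS_00264794, stood at 0 in set T in the authors' deposited table (p = 0.00615, q = 0.457).

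Among 67 genes of desmosomes, tight junctions, adherens junctions and the angiomotin and Hippo group, 4 were predicted targets: DSG2 and DSG3 from the 14 desmosomal genes, and AMOTL1 and CTGF from the 20 of the angiomotin and Hippo group. No member of the 22 tight junction genes or the 11 adherens junction genes was one. DSG2 and AMOTL1 are in the lists as the genes chosen above, and DSG3 was paired with the same lncRNAs as DSG2. The share of all goat genes that are predicted targets is not known here. Nothing is therefore read from this count, or from that of the markers below. CTGF, a secreted matrix protein gene switched on by YAP, was the one of the 4 listed with opposite directions of lncRNA and transcript. Its lncRNA TCONS_00459032, with a gap of 54718 bp, had a log2 change of -2.15 with p = 0.00585, whereas its transcript TCONS_00467461 was listed higher with p = 0.10035, both in the authors' deposited table. Class x lncRNAs were assigned to 5 of the 67 genes, 4 to DSG1, 2 to CTGF and 1 each to DSG3, DSC3 and PKP3, and none of these 9 was called, against 0.286% of the 3843 transcripts of all classes that name a gene. Of 23 markers of epithelium, stroma, endothelium, leukocytes, smooth muscle and trophoblast, 1 was a predicted target, the B cell marker MS4A1. These counts depend on where called lncRNAs lie and do not measure expression, so the cell types in the tissue could not be checked against their markers.

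DSG2 carried 6 GO terms. The term desmosome rested on 2 of the 200 annotated lncRNAs (1%), against 119 of 60755 in the background (0.196%), with p = 0.0589 in the authors' deposited table. Both are the lncRNAs beside DSG2, and the target genes with that term were DSG2 and DSG3, whose 5 transcripts were all listed lower. Cellular component disassembly involved in apoptosis (p = 0.0409 in the authors' deposited table) rested on the same lncRNAs, with DSG2 as its only annotated gene. Calcium ion binding had 15 lncRNAs (7.5%, against 4.66% in the background) and p = 0.0486 in the authors' deposited table. It included 13 target genes with 34 transcripts, 21 listed lower (61.8%, against 68.3% of all target transcripts) and 13 higher. The 3 of these transcripts that were lower with p under 0.05, against 3.92% of all target transcripts, belonged to DSG2, NINL and RAB11FIP4. Homophilic cell adhesion, with the cell adhesion genes AMIGO2 and PCDH15 beside the desmogleins, had p = 0.052 in the authors' deposited table. With adjustment over all 744 terms these had adjusted p of 0.255, 0.223, 0.236 and 0.236, and none passed. The remaining terms of DSG2 were integral to membrane (p = 0.386 in the authors' deposited table) and plasma membrane, with 14.5% of the annotated lncRNAs against 16.7% of the background (p = 0.827 in the authors' deposited table). The deposited numbers are headed as gene numbers and were read here as counts of lncRNAs. On that reading, neighbouring lncRNAs of a single gene enter a term more than once.

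AMOTL1 carried no GO term and 1 KEGG pathway, tight junction, with p = 0.621 in the authors' deposited table. Besides AMOTL1, the targets in that pathway were ACTBL2, NOSTRIN, PDE4DIP, PPP2R2B and RAB3B. Of the 30 transcripts of these 6 genes, 15 were listed lower and 15 higher, and none had a p under 0.05. The KEGG pathway of DSG2, arrhythmogenic right ventricular cardiomyopathy, in which desmosomal genes are mutated in patients, had p = 0.365 in the authors' deposited table.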

How the data were processed

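The data were strand-specific RNA libraries depleted of ribosomal RNA, 2 for each stage. The submitters' processing notes name Cufflinks, Cuffdiff, TopHat and TopHat2 without versions or roles. For the genome build, the sources used here give no name. Coding potential scores (CPC and CNCI), per the file headers, are values per transcript. The log2 values are the authors' deposited fold changes of set T over set C, and each p-value and q-value is deposited by the authors. The authors' deposited identifiers and positions of lncRNA and target pairs were read as they stand. Other numbers in the GO table are headed as gene numbers and were read here as counts of lncRNAs. For the terms of DSG2 they equal the number of lncRNAs of the annotated target genes, except for plasma membrane (29 against 28).

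No label matched the 4 columns of single libraries or the 2 with means of a set. They were not used, so the planned limma fit, its pseudocount alternative and leaving out replicates were not run, and depth is unknown. Computed here were gaps between deposited loci (difference of the nearest ends), counts in windows, and Benjamini-Hochberg adjustment at 0.05, checked on simulated data. The adjustment ran over all target transcripts with a direction, or over all GO terms. These target transcripts are of predicted targets with a GO or KEGG entry and not of all genes. Of 387 target genes, 353 matched a RefSeq table of the ARS1.2 assembly by identifier. Named were both genes, all calls within 100 kb, the nearest transcripts on each side, other targets of those calls, and their terms. DSG1, DSC3, PIWIL4, CTGF and MS4A1 came from the gene lists or the neighbourhood. The members and lists were chosen with earlier results of these data known. Python 3.11.15, numpy 2.4.6, pandas 2.3.3 and matplotlib 3.10.9 were used.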

Additional observations from a re-analysis of the deposited data

How the results depend on the processing

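With windows of 50 and 10 kb in place of 100 kb, the transcripts numbered 15 and 3 around DSG2, and 22 and 7 around AMOTL1. With intergenic transcripts alone they numbered 21 and 39. Under a q of 0.05, 0 calls were left beside DSG2 and 0 beside AMOTL1, whereas leaving out calls listed at 0 in a set removed none. Within 10 kb, a window for calls chosen after seeing the data, 1 call was left beside DSG2 and 1 beside AMOTL1. With adjustment over only the 267 whose p was under 1, a set chosen by the p itself, the adjusted p was 0.049 for the DSG2 transcript TCONS_00271122, which then passed, and 0.446 for that of AMOTL1. No paired analysis was possible because the columns of values per library could not be matched to the labels and the results come from no test over libraries. As these columns were not used, no replicate was left out and the other pseudocount was not run. Whether a listed change rests on a single library or on values near 0 was therefore not examined.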
